A study of Mus musculus with 23 samples.

Results

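The collagen genes of the mouse were followed in RNA from whole jejunum. They were taken as every protein-coding gene whose symbol is Col, digits, a and digits, a rule that chose 44 of the 55487 genes counted. By structure, 11 were fibrillar collagens, 9 belonged to basement membranes and 24 were other collagens (beaded filament, fibril-associated, short chain and transmembrane types). The libraries came from Cpa3+/+ mice, called wild type in the labels, and from Cpa3Cre/+ mice, which carry a Cre recombinase allele at the mast cell carboxypeptidase gene Cpa3 and are described there as mast cell-deficient. Each genotype was sampled naive, immunized, and on day 1, 3 or 5 of an oral challenge. Immunization was an intraperitoneal injection of 25 µg ovalbumin mixed with 2 mg alum, given on day 0 and again on day 14, and challenged mice were in addition offered 2 bottles from day 20, of which 1 held water and the other water with 20% egg white and 8% sugar. Every group held 2 libraries except for the naive and day 1 groups of Cpa3+/+ and the day 5 group of Cpa3Cre/+, which held 3. Females gave 18 libraries and males 5. One male was naive Cpa3+/+ (replicate 3), and the rest were Cpa3Cre/+, with 1 in every state before day 5. Ages were not given, and nothing states that replicates were separate animals, so p-values measure the spread between libraries, which may be partly technical.

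Collagens are secreted or membrane-bound proteins of 3 chains wound into a triple helix. The helix needs a glycine in each repeated triplet of residues, and procollagens are hydroxylated, folded by chaperones, trimmed outside the cell and crosslinked by lysyl oxidases. Types I, III and V form the fibrils of the gut wall, made mainly by fibroblasts and smooth muscle, while type IV forms the network under epithelium, muscle and endothelium, with types XV and XVIII beside it and type VII anchoring it to the stroma. Type VI forms beaded filaments between both.

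The length of the repeat set the fibrillar collagens apart, and stretches of coding sequence are shown so that an unbroken and a broken repeat can be seen. The other classes overlapped in it. The longest unbroken run of triplets that each open with a glycine codon held 216 to 344 of them in the fibrillar collagens (median 338). It held 30 to 75 in the basement membrane collagens (median 42) and 23 to 113 in the others (median 48.5). Coding exons of exactly 54 bases, a known unit of fibrillar collagen genes, numbered 29 in the median fibrillar gene (range 21 to 33). The median basement membrane gene had 2 (1 to 6) and the median other gene 3 (0 to 28), so fibrillar and other genes overlapped in this measure. Below, 90 coding bases of 4 members are given 5' to 3', from GENCODE vM21 transcripts on GRCm38. The first 3 start at the first triplet of the longest run, and their capitals mark the glycine codon that opens each triplet, while a glycine codon elsewhere in a triplet is in lower case. That of Col4a1 holds the last 5 triplets of that run and the next 15 codons, where the spacing breaks, and its capitals mark the opening codons of the run and every glycine codon after it.
Col1a1: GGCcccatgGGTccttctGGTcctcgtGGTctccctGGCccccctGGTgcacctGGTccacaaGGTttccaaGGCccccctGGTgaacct
Col3a1: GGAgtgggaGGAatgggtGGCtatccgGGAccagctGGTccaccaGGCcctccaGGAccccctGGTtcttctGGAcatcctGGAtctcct
Col6a1: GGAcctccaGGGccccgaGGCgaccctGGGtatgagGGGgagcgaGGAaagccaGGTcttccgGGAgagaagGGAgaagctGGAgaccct
Col4a1: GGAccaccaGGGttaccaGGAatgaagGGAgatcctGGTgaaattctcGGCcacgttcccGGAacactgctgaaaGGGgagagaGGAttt
Positions are counted from the first coding base: 502 to 591 in Col1a1, 490 to 579 in Col3a1, 766 to 855 in Col6a1 and 442 to 531 in Col4a1. On GRCm38, Col1a1 lies at chr11:94936224-94953042 (+), Col3a1 at chr1:45311538-45349706 (+), Col6a1 at chr10:76708792-76726168 (-), Col4a1 at chr8:11198423-11312826 (-) and Col18a1 at chr10:77052178-77166548 (-). Of these genes, Col3a1 shared 141 exonic bases with Gm47302 and Col4a1 shared 22 with its head-to-head neighbour Col4a2. Col1a1, Col6a1 and Col18a1 shared none with another annotated gene.

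Counts per library ran from 5476308 to 19342046 with a median of 13809248. The targeted gene Cpa3 ran from 0.83 to 22.1 CPM (counts scaled to a fixed library total) in Cpa3+/+ and from 0.10 to 1.51 in Cpa3Cre/+. It was lower in Cpa3Cre/+ over all states (log2 fold change -3.05, edgeR adjusted p = 0.0102), but the naive groups overlapped, with 0.83, 0.97 and 1.84 CPM against 1.07 and 0.10. Cpa3Cre/+ naive replicate 1, at 1.07 CPM, thus lay inside the range of naive Cpa3+/+. Epithelial, smooth muscle, endothelial and fibroblast markers were present in every library. Pancreas markers summed to at most 0.21 CPM, and the fat cell genes Adipoq, Lep and Plin1 had medians below 0.1 CPM. The collagens also set 4 libraries apart from most of the series. Cpa3Cre/+ naive replicate 1 had 34 of the 38 testable collagens above the median of the other libraries (median ratio 1.90) and the highest value of the series for 22. Cpa3Cre/+ day 5 replicate 3 had 36 below (0.376) and the lowest value for 20, Cpa3Cre/+ naive replicate 2 had 33 below (0.483), and Cpa3+/+ day 1 replicate 2 had 29 below (0.755). Cpa3Cre/+ day 1 replicate 2 was not among these 4, although its collagen share of counts, 0.223%, was the highest after Cpa3Cre/+ naive replicate 1. It had the highest value of the series for Col1a1, Col6a1 and Col18a1, among others. Cpa3Cre/+ naive replicate 1 also had the lowest summed epithelial markers and the highest fibroblast and smooth muscle markers (3195, 900 and 6299 CPM). Cpa3Cre/+ day 5 replicate 3 had the highest absorptive enterocyte sum (81956 CPM) and the lowest fibroblast sum (165 CPM). Their part in the results was not tested. In whole tissue, fewer cells of a type and less RNA per cell cannot be told apart.

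Collagen transcripts made up 0.0355 to 0.320% of all counts (median 0.133%). Levels between genes are compared as median CPM per kilobase of merged exons over the 23 libraries. Col6a1, a chain of type VI, was highest at 28.7, followed by Col3a1, the type III chain, at 27.2, and the type IV chains Col4a1 and Col4a2 at 18.8 and 13.4. Col6a2 stood at 13.2, the type I chains Col1a1 and Col1a2 at 11.9 and 8.61, and Col18a1, the type XVIII chain whose C-terminal fragment is endostatin, at 7.88. Next came Col6a4 at 5.91, fibril-associated Col14a1 at 5.60, Col15a1, the relative of Col18a1, at 4.05, Col6a3 at 4.03, and Col5a1 and Col5a2 of type V at 3.72 and 3.04. Dividing by the longest transcript instead put Col3a1 first at 48.1 CPM per kilobase. This division also reversed the type I chains, with Col1a2 at 20.0 and Col1a1 at 13.2, and put Col6a2 at 22.4. Between libraries, the CPM of the 19 most abundant members varied with an SD of 28.4 to 57.6% of the mean. Collagens varied together across libraries, so this spread does not measure how firm the order of neighbours is. That order was not tested. Among other structural types, the fibril-associated Col12a1 ran from 3.86 to 42.1 CPM (median 17.6), Col14a1 from 15.5 to 62.6 (39.3), Col15a1 from 7.85 to 48.2 (25.7) and Col17a1 from 0.10 to 2.20 (0.67). In all, 19 of the 44 had a median of at least 10 CPM, 38 passed the filter on low counts (10 fibrillar, 8 basement membrane, 20 other) and 6 did not. Those 6 were Col2a1 and Col10a1 of cartilage, Col4a6, Col9a1, Col19a1 and Col26a1, with 25, 1, 32, 43, 10 and 24 counts in all.

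**Figure D1:**
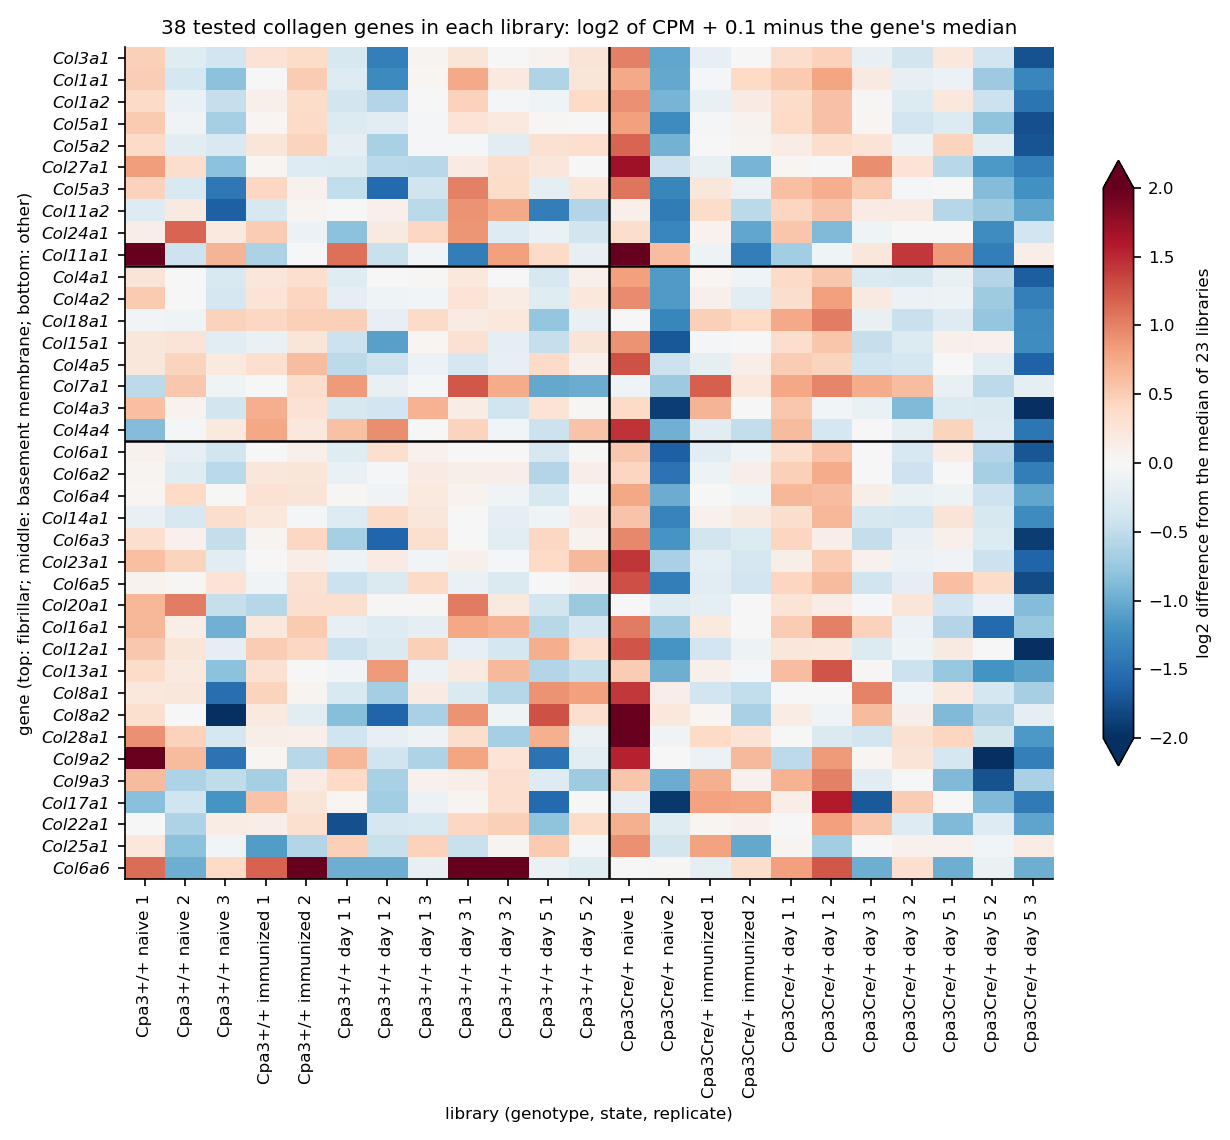
Each row is a tested collagen, ordered by class, and each column a library, ordered by genotype and state; colour is the log2 of CPM + 0.1 minus that gene's median over the 23 libraries. Cpa3Cre/+ naive replicate 1 stands out as high and Cpa3Cre/+ day 5 replicate 3 as low across all 3 classes.

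Shares of the classes moved less than the total. Of the summed CPM per kilobase, fibrillar collagens took 19.7 to 37.6% (median 33.7%), basement membrane collagens 23.6 to 30.3% (26.5%) and the others 36.2 to 51.5% (39.7%). The lowest fibrillar and the highest other share belonged to the same library, Cpa3+/+ day 1 replicate 2. Ratios of CPM between chains differed in their range. Among chains that share a molecule, Col4a1 over Col4a2 ran from 1.14 to 1.73 (median 1.51), Col6a1 over Col6a2 from 0.906 to 1.48 (1.06), Col1a1 over Col1a2 from 0.452 to 0.903 (0.787) and Col5a1 over Col5a2 from 0.663 to 1.46 (1.04). The scarce pair Col4a3 over Col4a4 ran from 0.50 to 6.50 (1.80). Across molecules, Col3a1 over Col1a1 ran from 2.37 to 5.46 and Col18a1 over Col4a1 from 0.223 to 0.673. Col6a3, another type VI chain, had a wide range against Col6a1, from 0.101 in Cpa3+/+ day 1 replicate 2 to 0.635.

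**Figure D2:**
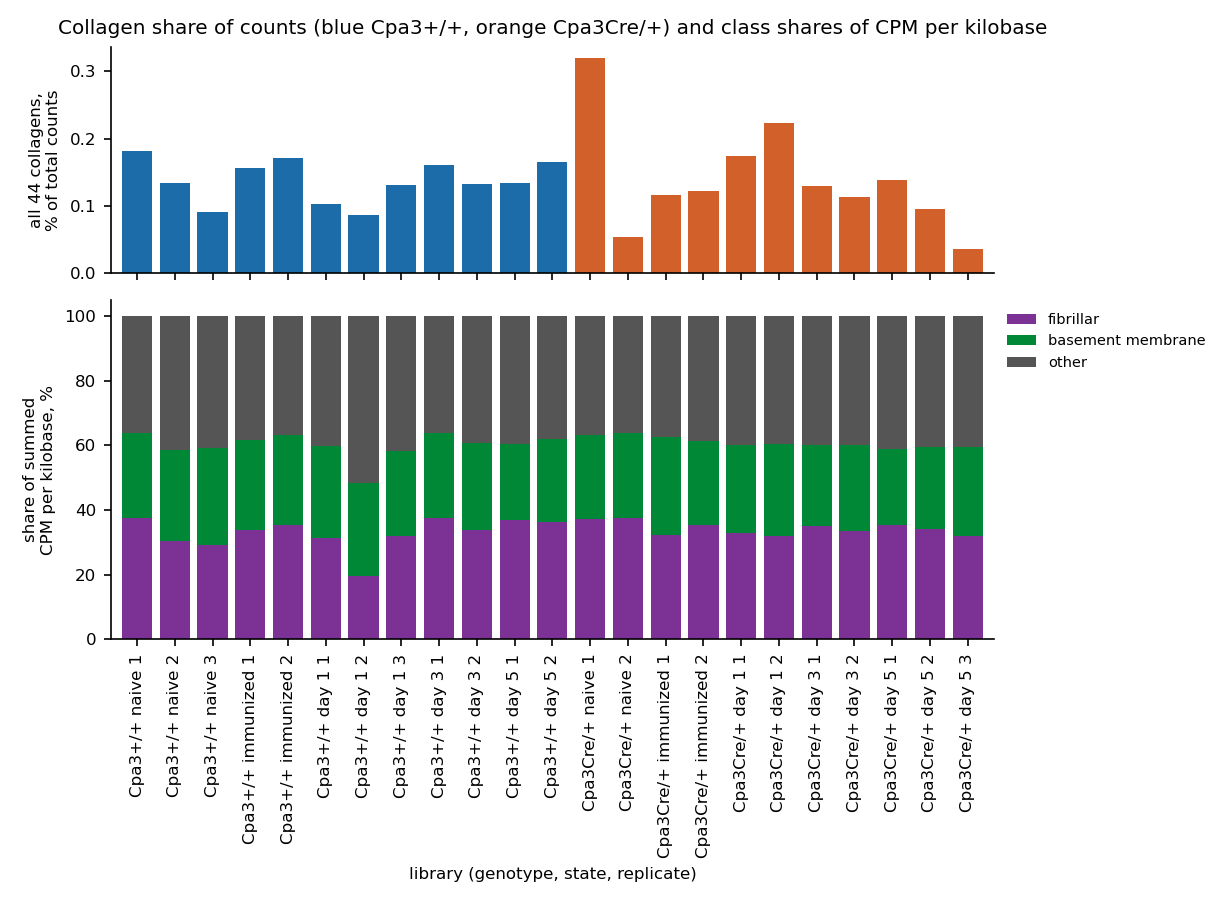
The upper bars give the collagen share of total counts in each library in percent, and the lower bars the split of summed CPM per kilobase among fibrillar, basement membrane and other collagens. The total spans 0.0355 to 0.320%, while the basement membrane share stays between 23.6 and 30.3%.

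Between the genotypes, no collagen passed the test when the 5 states were averaged. All tests were edgeR's quasi-likelihood test with sex as a covariate, Benjamini-Hochberg adjusted over 17236 genes and called at 0.05. Of 38 collagens, 0 were called, DESeq2 also called 0, and 0 reached an unadjusted p under 0.05. Among all genes, 0.029% were called and 1.12% lay below the unadjusted threshold. Log2 fold changes (Cpa3Cre/+ minus Cpa3+/+) were positive for 30 of the 38, where 57.5% of all genes were positive, with a median of 0.12. Most males were Cpa3Cre/+, so these values carry the male term of the model. That term was negative for 34 of 38 collagens (median -0.50), which makes most of these values higher. Its size depended on the naive Cpa3Cre/+ libraries, as given below. A fit left out 3 libraries that stood apart: Cpa3Cre/+ naive replicate 1, Cpa3+/+ day 1 replicate 2 and Cpa3Cre/+ day 5 replicate 3. It kept Cpa3Cre/+ naive replicate 2, which also stood apart, as the only library of its group. In that fit 3 were positive and the median was -0.20. Without Cpa3Cre/+ naive replicate 1 alone the median was -0.21, and no other single library turned its sign. Col8a2 and Col8a1, short chains of vascular and corneal matrix, had the smallest p, at 0.61 ± 0.34 and 0.39 ± 0.23 (SE), both with an edgeR adjusted p of 1.

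The sign of the naive comparison depended on which Cpa3Cre/+ library was kept. Fibrillar Col3a1 measured 373, 227 and 205 CPM in Cpa3+/+ and 538 and 131 in Cpa3Cre/+, and Col4a1 of the type IV network 168, 139 and 113 against 248 and 64.0. In both genes the Cpa3Cre/+ libraries lay on either side of all 3 Cpa3+/+ libraries. No collagen was called (background 0%) and DESeq2 called 0. In either direction 3 lay below the unadjusted threshold, all of them higher, where 5.34% of all genes did. Positive values were seen for 23 of 38, against 55.6% of all genes. The median of 0.19 became -0.93 without Cpa3Cre/+ naive replicate 1, with 36 negative, and 0.78 without Cpa3Cre/+ naive replicate 2. The former is the library whose Cpa3 level lay inside the naive Cpa3+/+ range. Leaving out replicate 1, 2 or 3 of naive Cpa3+/+ gave 0.32, 0.13 and 0.04. The smallest p belonged to Col8a2, at 0.99, 0.77 and 0.08 CPM against 4.58 and 0.91 (2.32 ± 0.65 on the log2 scale, edgeR adjusted p = 0.90).

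After immunization alone, none of the collagens was called between genotypes (background 0%), DESeq2 called 0, and 1 lay below an unadjusted p of 0.05, where 0.951% of all genes did. That member was Col6a6, a type VI chain with 77 counts in the whole series, 22 of them in Cpa3+/+ immunized replicate 2. Its values were 0.35 and 1.78 CPM in Cpa3+/+ and 0.07 and 0.15 in Cpa3Cre/+ (-3.35 ± 1.09, edgeR adjusted p = 1). The abundant members differed little: Col1a1 stood at 78.2 and 111 against 76.5 and 103 CPM, and Col18a1 at 73.9 and 76.7 against 77.4 and 73.2.

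On day 1 of challenge the collagens stood higher in Cpa3Cre/+ than in Cpa3+/+ as a group, but none passed the test. Col1a1 measured 112 and 135 CPM in Cpa3Cre/+ against 65.1, 32.1 and 80.6 in Cpa3+/+. Col3a1 measured 341 and 367 against 214, 103 and 278, and Col4a1 184 and 205 against 119, 141 and 143. The genotypes did not overlap in these 3 genes, with Cpa3+/+ replicate 2 lowest for the fibrillar pair. Such separation, both Cpa3Cre/+ libraries above all 3 Cpa3+/+ libraries, was found for 23 of 38 collagens (60.5%), where 13.3% of all genes showed it. Log2 fold changes were positive for 35 of 38, against 51.7% of all genes, with a median of 0.86 where the median gene had 0.02. At the unadjusted threshold 13 were higher, against 3.65% of all genes. The adjusted test called 0 (background 0%), as did DESeq2.

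The class medians on day 1 were 0.96 for fibrillar, 0.72 for basement membrane and 0.86 for other collagens. The smallest p belonged to Col5a3, a minor type V chain (1.86 ± 0.57), fibril-associated Col16a1 (1.37 ± 0.43) and Col1a1 (1.45 ± 0.48), each with an edgeR adjusted p of 0.635. Col16a1 read 15.2 and 21.7 CPM against 9.54, 8.95 and 9.45. Fold changes and list medians are adjusted for sex, whereas CPM values and sums are not. The male term of the model was negative for 34 of 38 collagens (median -0.50). A male in the Cpa3Cre/+ group alone therefore makes most of these fold changes higher than the CPM show. The size of that term depended on the naive Cpa3Cre/+ libraries, as given below. One of the Cpa3Cre/+ libraries was male while all 3 Cpa3+/+ libraries were female. The median of 0.86 fell to 0.46 without that library (Cpa3Cre/+ day 1 replicate 2), and 1 collagen then lay below the unadjusted threshold. It was 1.30 without Cpa3Cre/+ day 1 replicate 1, with 16 below that threshold. Without replicate 1 or replicate 2 of Cpa3+/+ day 1 the median was 0.91 and 0.78, with 6 below the threshold in each case, and without the 3 libraries apart it was 0.60. Fibroblast markers were positive in 10 of 10 (median 0.68) with overlapping sums of 317 to 395 CPM in Cpa3+/+ and 369 to 417 in Cpa3Cre/+. Macrophage markers were positive in 4 of 4 (0.86), with sums of 80 to 120 against 145 to 172 CPM, and smooth muscle markers in 10 of 10 (0.80), with 791 to 1489 against 1300.4 to 1442 CPM, whereas epithelial markers were negative in 6 of 6 (-0.28), with 6776 to 11330.2 against 6667 to 8683 CPM. Whether these account for any of the collagen values was not tested.

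**Figure D3:**
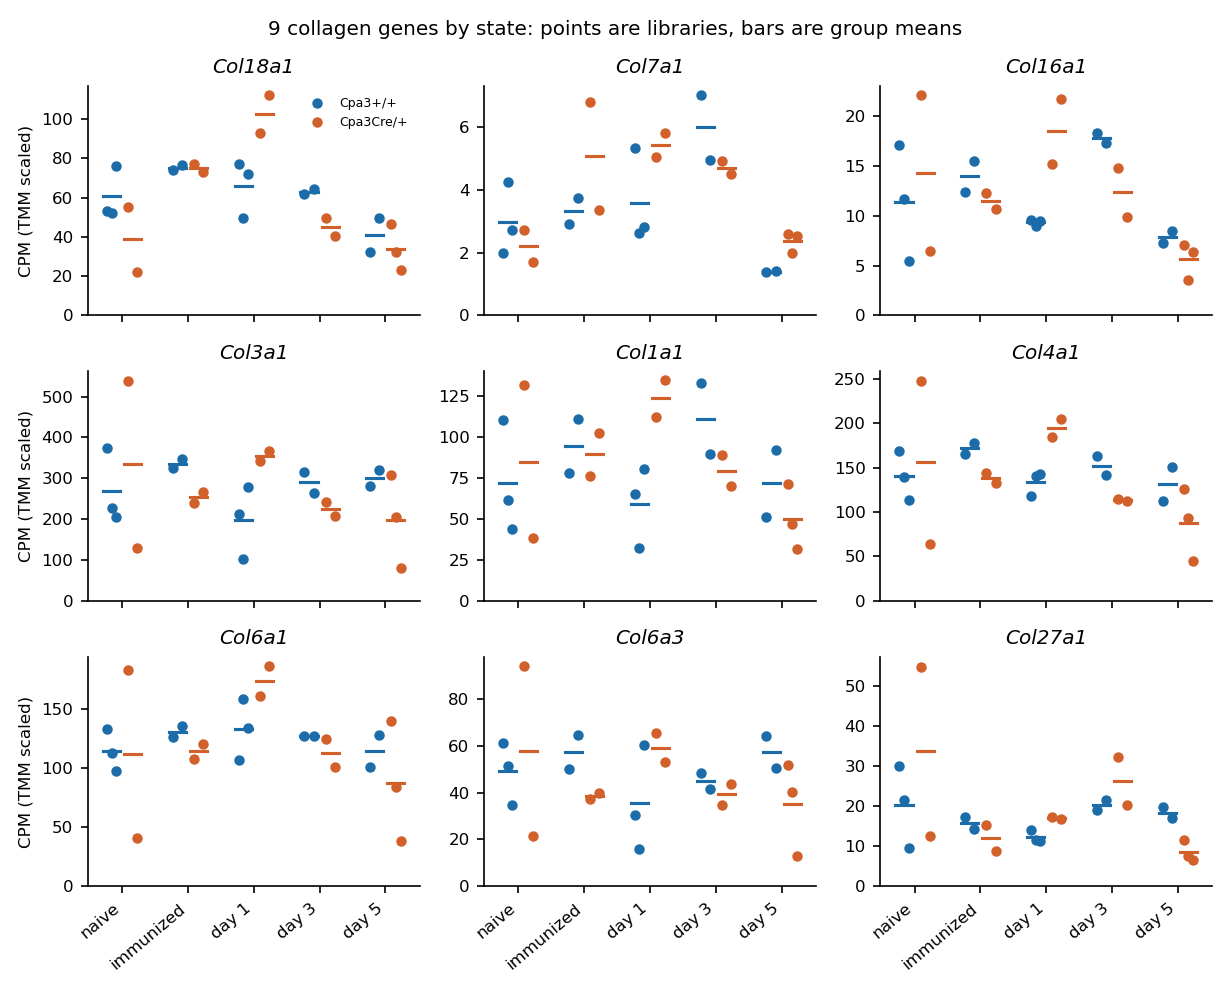
CPM of 9 collagens in the 5 states, with each point a library, blue for Cpa3+/+ and orange for Cpa3Cre/+, and bars for the group means. The day 5 points of Col18a1, 23.1 to 49.6 CPM, all lie below the immunized points, 73.2 to 77.4 CPM.

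On day 3, no collagen was called between genotypes (background 0%), DESeq2 called 0, and 2 lay below the unadjusted threshold, against 1.55% of all genes. These were Col6a6 (-3.57 ± 1.13), at 0.76 and 1.02 against 0 and 0.15 CPM, and Col8a1 (1.37 ± 0.50), at 1.25 and 1.02 against 3.19 and 1.49 CPM, both with an edgeR adjusted p of 1. The median over collagens was -0.08.

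On day 5 the picture by sign was the opposite of day 1. Log2 fold changes between genotypes were negative for 33 of 38 collagens, against 52.2% of all genes, with a median of -0.57 where the median gene had -0.03. All 3 Cpa3Cre/+ libraries lay below both Cpa3+/+ libraries for 10 of 38 (26.3%), against 14.6% of all genes. None was called (background 0%), DESeq2 called 0, and 5 were lower at the unadjusted threshold, against 3.57% of all genes. These were the transmembrane Col23a1 (-1.09 ± 0.41), fibrillar Col27a1 (-1.11 ± 0.42), Col8a1, Col8a2 and Col5a1, each with an edgeR adjusted p of 0.524. Col27a1 measured 19.8 and 17.0 CPM in Cpa3+/+ against 11.5, 7.55 and 6.49 in Cpa3Cre/+, without overlap. The median of -0.57 was -0.28 without Cpa3Cre/+ day 5 replicate 3, with 2 collagens at the unadjusted threshold, and -0.92 without replicate 1 of that group, with 10. Without replicate 1 or 2 of Cpa3+/+ day 5 it was -0.64 and -0.39, with 1 and 3. Absorptive enterocyte markers were positive in 7 of 7 (median 1.03) and fibroblast markers negative in 9 of 10 (-0.74). Their sums were 18652.8 to 21205.5 and 423 to 464 CPM in Cpa3+/+, and 30231 to 81956 and 165 to 443 CPM in Cpa3Cre/+. Their part was not tested.

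Along the challenge, day 5 was the state in which a collagen passed the test. Col18a1 measured 73.9, 76.7, 77.4 and 73.2 CPM in the 4 immunized libraries, and 32.3, 49.6, 46.4, 32.2 and 23.1 CPM in the 5 day 5 libraries. Every day 5 library lay below every immunized library, and the immunized libraries spanned 73.2 to 77.4 CPM. Averaged over genotypes, Col18a1 fell on day 5 relative to the immunized state by 1.03 ± 0.26 (SE) on the log2 scale, a 2.05-fold lower level with an edgeR adjusted p of 0.0469. It was the only collagen called, against 1.94% of all genes in either direction, and the value was negative in both genotypes taken alone: -0.88 ± 0.37 in Cpa3+/+ and -1.19 ± 0.35 in Cpa3Cre/+, with edgeR adjusted p values of 0.473 and 0.26. Its naive levels, 53.4, 52.3 and 76.2 CPM in Cpa3+/+ and 55.3 and 22.3 in Cpa3Cre/+, overlapped those of day 5.

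The call of Col18a1 sat close to the threshold. It held in 8 of 23 fits that left out 1 library, those without Cpa3+/+ naive replicate 3, Cpa3+/+ day 1 replicate 2, and replicates 1 and 2 of Cpa3Cre/+ naive, 1 and 2 of Cpa3Cre/+ day 1 and 1 and 3 of Cpa3Cre/+ day 5. Leaving out any of the other 15 libraries gave edgeR adjusted p values of 0.0551 to 0.190, and the log2 fold change stayed between -1.21 and -0.91 over the 23 fits. With replicate number as a block the adjusted p was 0.0788, and with female libraries alone 0.0726. The adjusted p over these and the other settings ran from 0.000162 to 0.190. DESeq2 gave 0.00604 and called 4 collagens: Col18a1, Col7a1, Col16a1 and Col13a1. Without the 3 libraries apart the same 4 were called by edgeR.

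The other 3 of these 4 missed the threshold in the full data. Col7a1, which forms the anchoring fibrils, read 2.90, 3.73, 6.77 and 3.36 CPM when immunized and 1.37, 1.40, 2.61, 1.99 and 2.54 on day 5 (-1.15 ± 0.32, edgeR adjusted p = 0.0712). Col16a1, a fibril-associated chain, read 12.4, 15.5, 12.3 and 10.7 against 7.24, 8.42, 7.07, 3.57 and 6.31 (-1.11 ± 0.31, edgeR adjusted p = 0.0721). Col13a1, a transmembrane chain, read 6.01, 4.86, 5.24 and 4.73 against 3.22, 3.47, 2.83, 2.07 and 2.26 (-1.01 ± 0.32, edgeR adjusted p = 0.112). None of the 3 overlapped between the states. Full separation of the 5 day 5 libraries below the 4 immunized libraries was found for 6 of 38 collagens (15.8%), where 3.71% of all genes showed it. The remaining members of that set were Col11a2 and Col17a1.

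Most of the remaining collagens had negative values as well. Averaged over genotypes, 33 of 38 had a negative day 5 value, against 47.8% of all genes, and the median was -0.49 where the median gene had 0.02. At the unadjusted threshold 12 were lower, against 8.77% of all genes. That number was 5 (median -0.51) without Cpa3+/+ immunized replicate 2. Omitting Cpa3+/+ day 5 replicate 1 gave 6 (-0.50), and omitting Cpa3Cre/+ immunized replicate 1 gave 7 (-0.39). By class, 9 of 10 fibrillar (median -0.44), 8 of 8 basement membrane (-0.62) and 16 of 20 other collagens (-0.46) were negative. Abundant chains overlapped between the states. Col3a1 read 326, 346, 240 and 267 CPM in the immunized libraries and 282, 320, 309, 206 and 80.0 on day 5, and Col6a3 read 49.9, 64.6, 37.3 and 39.9 against 64.0, 50.5, 51.8, 40.1 and 12.9. In both genes the lowest value was that of Cpa3Cre/+ day 5 replicate 3. In Cpa3+/+ alone 30 of 38 were negative, against 47.6% of all genes, and 3 were lower at the unadjusted threshold, against 4.79%. In Cpa3Cre/+ 36 of 38 were negative, against 48.9%, and 9 were lower, against 5.37%. The adjusted test called 0 in each, as did DESeq2 (background 0% and 0.0348%). The Cpa3+/+ median of -0.28 was -0.17 without immunized replicate 2 and -0.16 without day 5 replicate 1. The Cpa3Cre/+ median of -0.85 was -0.47 without immunized replicate 1, the male of that group. It was -0.56 without day 5 replicate 3, with 6 collagens at the unadjusted threshold, and -1.12 without day 5 replicate 1, with 19. Immunized Cpa3Cre/+ held a male and day 5 none. This median, and the genotype difference given next, therefore also carry the male term of the model, which was negative for most collagens and makes most of these values lower. The difference of the day 5 response between genotypes was negative for 32 of 38, against 50.7% of all genes, with 0 called (background 0%), 0 at the unadjusted threshold and 0 by DESeq2. Its median of -0.49 was 0.06 without the 3 libraries apart, and between -0.85 (without Cpa3Cre/+ day 5 replicate 1) and -0.09 (without replicate 3) when 1 library was left out.

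**Figure D4:**
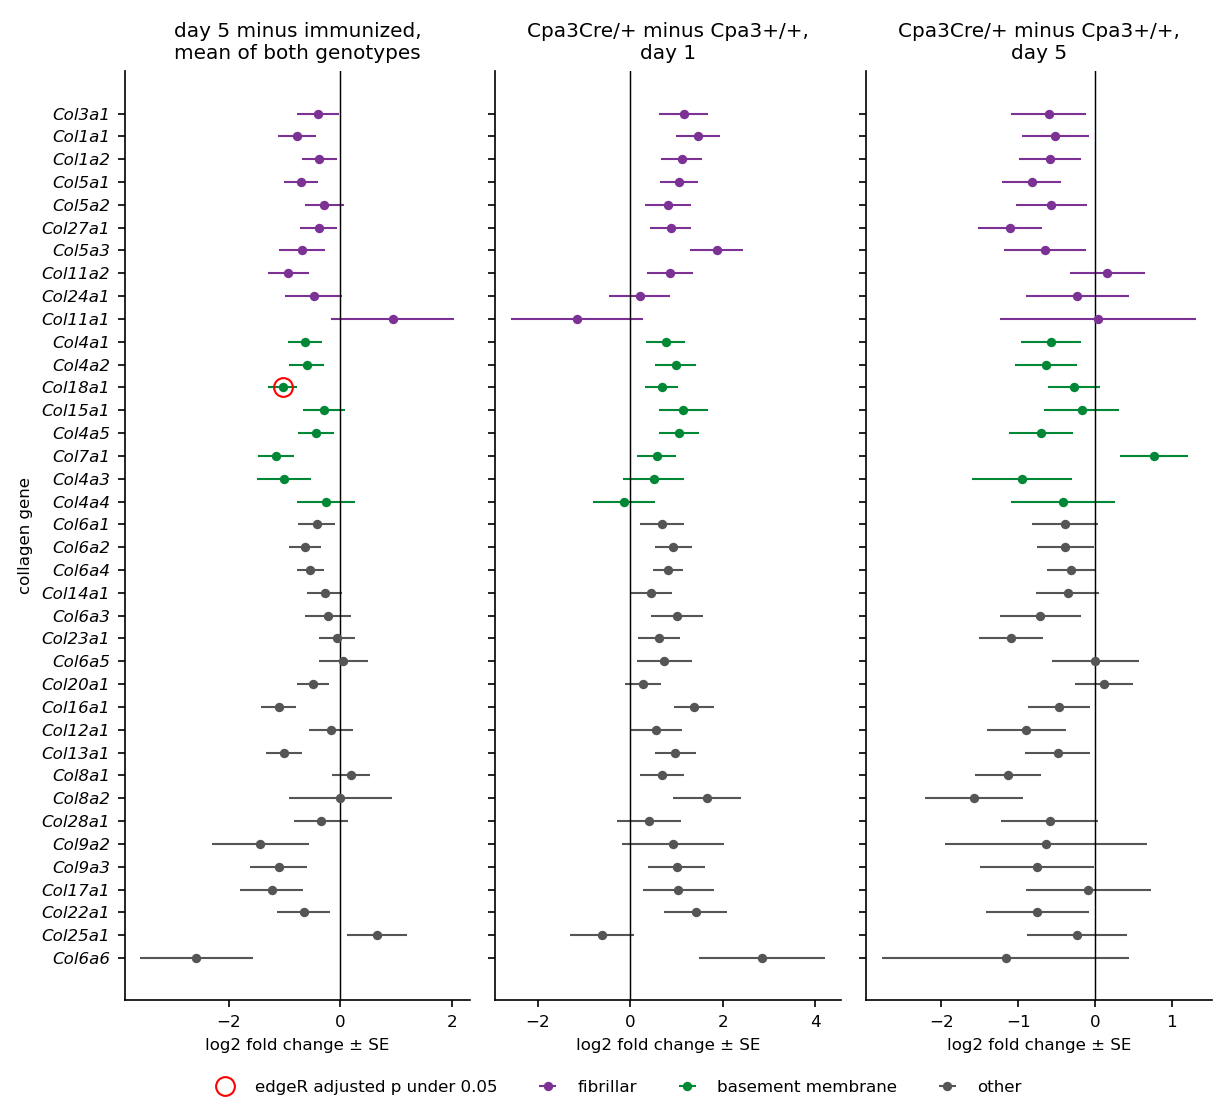
Log2 fold changes with standard errors of the 38 tested collagens, coloured by class, for day 5 against immunized and for the genotypes on day 1 and day 5. In the first panel 33 points lie left of 0, and Col18a1, circled in red, is the collagen past the threshold.

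Marker lists were read in the same comparison. Fibroblast markers had a median of -0.11 with 6 of 10 negative, endothelial markers -0.03 with 4 of 8 negative, and smooth muscle markers 0.48 with 8 of 10 positive. Their sums overlapped between states: 309 to 417 and 165 to 464 CPM for fibroblasts, and 132 to 166 and 75.4 to 215 CPM for endothelium, immunized and day 5. Absorptive enterocyte markers were negative in 7 of 7 (median -0.37), with sums of 40071, 38382, 54005 and 68470 CPM when immunized and 18652.8, 21205.5, 32924, 30231 and 81956 on day 5. Of the day 5 libraries, 4 lay below all immunized ones and Cpa3Cre/+ day 5 replicate 3 above them. Macrophage markers were negative in 3 of 4 (median -0.26), and their sums of 82.6 to 129 and 34.3 to 128 CPM overlapped. Of the 8 mast cell markers 4 rose by the test, against 0.557% of all genes called higher, and the median of the list was 3.06. Mast cell sums did not overlap within a genotype, immunized and day 5. They were 43.4 and 85.1 against 93.2 and 584 CPM in Cpa3+/+. In Cpa3Cre/+ they were 5.82 and 7.41 against 70.1, 104 and 79.6 CPM. The states overlapped only with the genotypes pooled. B cell follicle markers were lower in 6 of 6 at the unadjusted threshold, with none called, and a median of -2.63. Their sums were 87.6, 3.73, 6.19 and 77.4 CPM in the immunized libraries and 3.54 to 20.8 on day 5, with overlap. The high immunized values were those of Cpa3+/+ replicate 1 and Cpa3Cre/+ replicate 2. GC content also differed among the members. Over the 38 collagens, coding GC ran from 49.0 to 66.1% (median 59.6%), and its correlation with the day 5 log2 fold change across genes was r = -0.27 and rho = -0.44, a description over genes that are not independent. Col18a1 had 60.9%, Col7a1 61.7%, Col16a1 62.0%, Col13a1 64.4% and Col3a1 56.9%. The part of these measures in the day 5 values was not tested.

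The other steps of the series gave no collagen call. Immunized against naive, averaged over genotypes, 0 were called (background 0%), DESeq2 called 0, and 5 lay below the unadjusted threshold, against 10.9% of all genes; 20 of 38 were negative, against 54% of all genes. Col17a1, a hemidesmosome collagen of epithelium, had the smallest p (1.66 ± 0.59), followed by Col11a1 (-2.60 ± 0.97) and Col27a1 (-0.84 ± 0.32), with edgeR adjusted p values of 0.381, 0.389 and 0.389. The median of -0.02 was 0.58 without Cpa3Cre/+ naive replicate 1, with 32 positive, and -0.28 without Cpa3Cre/+ naive replicate 2. Over the fits that left out 1 library, Col27a1 ran from -1.36 to -0.31 and Col18a1 from 0.41 to 1.12. Col11a1 ran from -4.19 to -1.54 over the 22 of these fits that tested it. It had 78 counts in the whole series, 15 of them in Cpa3Cre/+ naive replicate 1. A fit that keeps 1 naive Cpa3Cre/+ library rests on it for that group. There Col18a1 read 55.3 CPM in replicate 1 and 22.3 in replicate 2, the lowest of the series. Col27a1 read 54.8 CPM in replicate 1, the highest of the series, and 12.6 in replicate 2. Smooth muscle markers were negative in 10 of 10 in this comparison (median -1.16) and enteric neuron and glia markers in 9 of 9 (-1.21), with sums of 664 to 1601 against 826 to 6299 CPM and of 23.8 to 35.6 against 21.1 to 123 CPM, immunized and naive. Their part was not tested. Within the genotypes, 0 were called in Cpa3+/+ and 0 in Cpa3Cre/+ (background 0% in each), 0 by DESeq2, and 1 and 6 lay below the unadjusted threshold, where 1.69% and 13.1% of all genes lay.

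Day 1 against immunized, averaged over genotypes, gave 0 called collagens (background 0%), 0 by DESeq2 and 0 at the unadjusted threshold, where 3.16% of all genes lay. The genotypes differed in sign. In Cpa3+/+, 27 of 38 were negative (median -0.37), against 48.9% of all genes, and in Cpa3Cre/+ 35 of 38 were positive (median 0.49), against 51% of all genes. The difference of the day 1 response was positive for 33 of 38, against 49.2% of all genes, with a median of 0.86. The Cpa3Cre/+ median of 0.49 was 0.05 without day 1 replicate 2, 0.87 without day 1 replicate 1, 0.31 without immunized replicate 2 and 0.89 without immunized replicate 1. The median difference was 0.44 without Cpa3Cre/+ day 1 replicate 2, 1.32 without day 1 replicate 1 and 1.30 without immunized replicate 1. By the test itself 0 were called there (background 0%), 0 by DESeq2, and 3 were higher at the unadjusted threshold, against 1.86% of all genes. Within each genotype 0 were called (background 0%), 0 by DESeq2, and 1 lay below the unadjusted threshold, where 5.37% of all genes lay in Cpa3+/+ and 2.12% in Cpa3Cre/+, so that these counts were near the background. The members were Col6a6 in Cpa3+/+, at 0.35 and 1.78 against 0, 0 and 0.08 CPM, and Col13a1 in Cpa3Cre/+, at 5.24 and 4.73 against 7.51 and 11.8 CPM.

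Day 3 against immunized gave 0 called collagens averaged over genotypes (background 0%), 0 by DESeq2 and 0 at the unadjusted threshold, where 9.58% of all genes lay. The median was -0.04. Col27a1 had the smallest p (0.66 ± 0.33), at 17.4, 14.2, 15.3 and 8.86 CPM when immunized and 19.0, 21.6, 32.2 and 20.4 on day 3, without overlap (edgeR adjusted p = 0.519). Col18a1 measured 61.9, 64.2, 49.8 and 40.7 CPM on day 3, all below the immunized libraries, with the lowest inside the day 5 range. In each genotype, and for the difference of the day 3 response between them, 0 were called (background 0% in each), 0 by DESeq2, and 0, 0 and 1 lay below the unadjusted threshold, where 4.93%, 4.31% and 1.42% of all genes lay.

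Across all 10 groups at once, 0 of 38 collagens were called (background 0.0928%), and 9 lay below the unadjusted threshold, against 10.8% of all genes. That number was 15 and 18 without replicate 1 and replicate 2 of Cpa3Cre/+ naive. DESeq2 called 6: Col7a1, Col8a2, Col13a1, Col16a1, Col18a1 and Col27a1. The smallest p in edgeR belonged to Col6a6, Col18a1 and Col27a1, with adjusted p values of 0.208, 0.29 and 0.292. Of the 19 abundant members, most had their highest group mean in Cpa3Cre/+ day 1 and their lowest in Cpa3Cre/+ day 5. Col18a1 ran from 103 ± 14 CPM (SD, n = 2) to 33.9 ± 12 (SD, n = 3) between these groups, and Col1a1 from 124 ± 16 (SD, n = 2) to 50.2 ± 20 (SD, n = 3). Males were compared with females in the same model. Negative values were found for 34 of 38 collagens, against 53.8% of all genes, and 6 were lower at the unadjusted threshold, against 1.87%, with 0 called (background 0.0348%) and 0 by DESeq2. The median of -0.50 was -0.16 and -0.14 without Cpa3Cre/+ naive replicate 1 and replicate 2, the female and male of that group, with 0 at the unadjusted threshold in both cases. Fibroblast markers were negative in 10 of 10 (median -0.73), and their part was not tested.

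The genes around collagen were read from 7 lists with 110 genes, of which 107 passed the filter. In none of the comparisons that gave a fold change was any of them called. Calls across all 10 groups at once were not counted for these lists. On day 5 against immunized, 13 of the 107 were lower and 1 higher at the unadjusted threshold, which 8.77% of all genes met in the lower direction. Basement membrane partners, the laminins, nidogens and heparan sulfate proteoglycans, were negative in 13 of 16 (median -0.34), 5 of them at the unadjusted threshold. Agrn (agrin) stood at -0.68 ± 0.20 and Hspg2 (perlecan) at -0.83 ± 0.27, with edgeR adjusted p values of 0.0831 and 0.119. Procollagen processing and crosslinking genes were negative in 9 of 13 (median -0.30), with Bmp1, which trims the C-propeptide, at -0.72 ± 0.20 and Loxl1, a lysyl oxidase, at -1.12 ± 0.39 (edgeR adjusted p = 0.0729 and 0.139).

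The other lists had medians between -0.09 and 0.31 on day 5. Synthesis and folding genes, the hydroxylases and chaperones, had a median of -0.09 over 20, fibril-binding matrix genes -0.05 over 19, breakdown enzymes and their inhibitors 0.06 over 16, and matrix growth factors -0.04 over 14. Tgfb1, the growth factor that induces collagen genes in fibroblasts, stood at -1.15 ± 0.31 (edgeR adjusted p = 0.0624), well below the median of its list. Collagen receptors were positive in 6 of 9 (median 0.31). Those that were negative included Ddr1, an epithelial collagen receptor kinase, at -1.01 ± 0.31 and Itga11, a fibroblast integrin, at -0.90 ± 0.36 (edgeR adjusted p = 0.10 and 0.205). Both thus ran against most of their list. In the day 1 genotype comparison the fibril-binding genes were positive in 18 of 19 (median 0.77) and in that of day 5 negative in 18 of 19 (-0.59), with none called in either.

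Across the 23 libraries the collagens with at least 10 CPM moved together. Their 171 pairs had a median Pearson r of 0.77 on log2 CPM (range 0.19 to 0.96), a description over libraries that share depth and composition. Chains of a molecule were among the closest: Col4a1 with Col4a2 at 0.96, Col6a1 with Col6a2 at 0.95 and Col1a1 with Col1a2 at 0.91. Col3a1 went with Col1a2 at 0.95 and with Col5a2 at 0.94, but Col6a3 with Col6a1 at 0.66. Without the 2 libraries farthest from the median, picked separately for each pair of genes, these 6 values were 0.93, 0.89, 0.91, 0.96, 0.92 and 0.77. Some of the pairs are also neighbours on a chromosome. Col4a1 and Col4a2 overlap by 22 bases head to head, Col6a2 and Col6a1 lie 85.2 kb apart, and Col3a1 and Col5a2 24.6 kb apart. Col4a3 and Col4a4, at 71 bases, had r = 0.54 at 1.37 and 0.69 median CPM, with rho = 0.27, and r = 0.03 without the 2 farthest libraries, on which the value rests. The summed fibroblast, endothelial and macrophage markers followed the collagens with a median r of 0.77, 0.76 and 0.73, smooth muscle with 0.38 and epithelium with -0.51.

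Col18a1 had the lowest r of the 19 abundant collagens with the fibroblast sum (0.35) and the highest with the epithelial sum (0.04). With the macrophage sum its r of 0.82 was below those of Col6a2 (0.89) and Col6a1 (0.85). Among 14619 genes that are no collagens, those most like Col18a1 were Itgb2, Spi1, Fermt3, Prex1 and Tyrobp (r = 0.91 to 0.86 over 23 libraries), genes known from white blood cells. This list was made for Col18a1 after its values were seen. The genes most like Col4a1 were Axl, Lrrc32, Cacna1g, Lamb1 and Itga11 (0.95 to 0.92), those most like Col6a1 were Mmp2, Axl, Serping1, Vsir and Slc11a1 (0.95 to 0.92), and those most like Col1a1 were Obsl1, Cyth4, Ppm1m, Rem1 and Pcolce, an enhancer of procollagen processing (0.89 to 0.87).

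**Figure D5:**
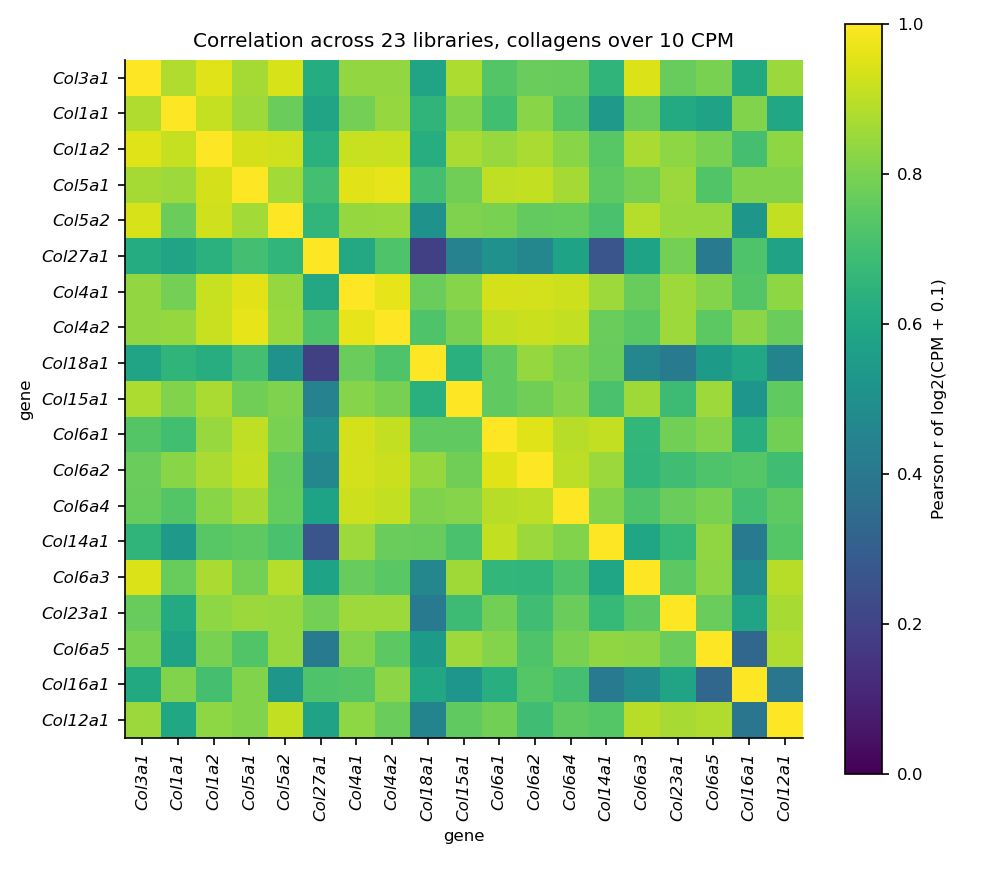
Pearson correlations of log2 CPM across the 23 libraries among the 19 collagens with a median of at least 10 CPM, in the order of the classes. The median pair has r = 0.77, Col4a1 with Col4a2 reaches 0.96, and the darkest cells belong to Col27a1 and Col18a1 (0.19 with each other).

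Start regions of Col18a1 and of the most abundant fibrillar chain Col3a1 are shown because Col18a1 was the collagen called on day 5 and Col3a1 the most abundant fibrillar chain. The windows, from RefSeq on GRCm38.p6, are given 5' to 3' on the gene's strand with 3 motifs in capitals wherever either strand held them: the CCAAT box, the TATAAA box and the GC box GGGCGG. These motifs share no letters with each other in the windows shown. Col3a1 is the window chr1:45311288-45311537 (+) with 250 bases and Col18a1 the window chr10:77166549-77166780 (-) with 232 bases, whose last 18 bases before the RefSeq start were left out.
Col3a1 start region: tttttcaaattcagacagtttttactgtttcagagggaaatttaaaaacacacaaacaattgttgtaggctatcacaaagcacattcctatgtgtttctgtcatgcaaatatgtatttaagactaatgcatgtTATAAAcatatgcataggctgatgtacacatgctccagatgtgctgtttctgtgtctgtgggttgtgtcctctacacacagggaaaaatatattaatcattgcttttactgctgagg
Col18a1 start region: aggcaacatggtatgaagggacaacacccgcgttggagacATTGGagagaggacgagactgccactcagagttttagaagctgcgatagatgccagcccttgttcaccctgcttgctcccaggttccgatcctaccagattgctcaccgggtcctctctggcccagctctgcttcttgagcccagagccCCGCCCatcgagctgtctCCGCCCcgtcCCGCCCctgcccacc
The Col3a1 window held 1 TATAAA, and the Col18a1 window held 1 CCAAT box and 3 GC boxes, all read on the opposite strand. In 250-base windows of the whole RefSeq table (32851 windows) the CCAAT box occurred in 33.8%, the TATAAA box in 12.4% and the GC box in 32.7%. Of 38 windows matched to 35 collagens, 34.2%, 13.2% and 57.9% held them. A match of these letters is a description and marks no binding site.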

How the data were processed

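RNA from whole mouse jejunum, with fat and Peyer's patches removed, was sequenced from 23 libraries in 10 groups. Per the submitters' processing notes, reads were handled with STAR and featureCounts from Subread 1.5.1 on mm10 (GRCm38). The values are whole-number read counts per gene as deposited by the authors, not normalized. Neither the strand setting of the counting nor its annotation release is given in the sources used here, so reads of overlapping genes on opposite strands may not have been separated.

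Counts were filtered with filterByExpr by group (17236 genes kept), scaled with TMM and fitted in edgeR 4.0.16 (R 4.3.3, limma 3.58.1) with group and sex, all 23 libraries sharing 1 estimate of spread. The fit had 12 residual degrees of freedom and a common biological coefficient of variation of 28.6%. In all, 23 comparisons were tested with the robust quasi-likelihood test, adjusted by Benjamini-Hochberg over all genes tested. CPM values are TMM scaled, correlations used log2(CPM + 0.1), and levels between genes were divided by merged exon length. The script was tested on simulated data.

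Alternatives were DESeq2 1.42.0, DESeq2 size factors, no filter on low counts, no sex term, female libraries alone, a replicate block, the longest transcript as length and leaving out each library. Leaving out 3 libraries together was chosen after seeing the data, as were the counts of groups without overlap and the GC correlations. The members, the lists and the tests were chosen with earlier results of these data known. The rule for naming collagens took the main chains of types I, III to VII, XII, XIV, XV, XVII and XVIII, the members past the threshold and, where none passed, up to 3 with the smallest p. Members outside it (among them Col8a1, Col13a1 and Col16a1 beside other comparisons) were named after their values were seen.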

Additional observations from a re-analysis of the deposited data

How the results depend on the processing

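Most counts of collagens past the threshold did not move. With no filter on low counts, the count became 4 in the day 1 genotype comparison, 2 in that of day 5, 1 for immunized against naive, 5 for day 5 against immunized (4 in Cpa3Cre/+ alone), 1 for day 1 against immunized in Cpa3+/+, 1 for the difference of the day 1 response and 15 across the 10 groups. DESeq2 gave 4 for day 5 and 6 across the groups, and a fit without sex gave 2 for day 5. Female libraries alone gave 1 for immunized against naive, 2 for it in Cpa3Cre/+ and 0 for day 5. Without the 3 libraries apart the count was 4 for day 5 (1 in Cpa3+/+ and 2 in Cpa3Cre/+). Counts of that fit for immunized against naive and across the groups rest on 1 naive Cpa3Cre/+ library and are not given. Leaving out each library gave 0 to 3 for day 5, 0 to 1 for immunized against naive and 0 to 2 for it in Cpa3Cre/+. The cause was not tested.

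With the replicate number as a block the day 5 count was 0 (Col18a1 edgeR adjusted p = 0.0788). Of 93 pairs of same-numbered libraries in different groups, 18 had deviations correlated over 0.1 (median -0.0055, highest 0.564). In a group of 2 libraries the deviations mirror each other, so these values cannot decide whether the numbers mark a shared batch.

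Reversed values were Col25a1 between immunized genotypes (-0.34 with females alone, -0.34 without Cpa3Cre/+ immunized replicate 1, up to 2.38 with a library left out), Col7a1 there (-0.037 in both, up to 1.11), Col28a1 between naive genotypes (-0.40 without the 3 libraries, -0.36 without Cpa3Cre/+ naive replicate 1, up to 1.93) and Col16a1 on day 1 in Cpa3Cre/+ (-0.12 without day 1 replicate 2, up to 1.34). By longest transcript, fibrillar collagens took 41.2%, basement membrane 22.5% and others 36.5%, with Col3a1 at 48.1 CPM per kilobase. Groups of 2 or 3 libraries limit all of these values.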
